A study of Mus musculus with 144 samples.

Results

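The interferon-inducible GTPases of the guanylate-binding protein (GBP) and immunity-related GTPase (IRG) families were followed in leukocytes of mice after burn, trauma-hemorrhage or lipopolysaccharide (LPS). The genes listed were Gbp2, Gbp3 and Gbp7 of the GBP family, and Irgm1, Irgm2, Igtp, Iigp1, Tgtp1 and Ifi47 of the IRG family. A gene was taken as measured where a probe set of the array carried its symbol and no other. By that rule 8 of the 9 genes were measured, on 11 probe sets, out of 18193 genes on 34945 probe sets. Tgtp1 lay on 1 probe set that carries several symbols and is not reported.

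RNA of circulating leukocytes or splenocytes from individual mice was hybridized to 144 Affymetrix Mouse Genome 430 2.0 arrays in 36 groups of 4. Burned mice and mice subjected to trauma-hemorrhage were sampled at 2 hr and at 1, 3 and 7 days in both tissues, and LPS-treated mice at 2 hr and 1 day in blood only. Every injured or LPS group had a sham group of its own model, tissue and time, and each comparison below is against that sham. Blood cells came from cardiac puncture, and both blood cells and splenocytes of the burn and trauma-hemorrhage arms were freed of red cells by lysis. C57BL/6J is given as the strain of the LPS arm. The strain of the other arms, the sex and age of the mice, the burned area, the degree of blood loss, the sham procedure and the LPS dose are not given in the sources used here. Trauma-hemorrhage joins tissue injury with blood loss, and LPS is the outer-membrane glycolipid of Gram-negative bacteria.

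GBPs and IRGs are GTPases that mouse cells make after exposure to interferon and that gather on membranes around intracellular bacteria and parasites. Interferon-gamma acts on its target genes mainly through GAS elements, and type I interferons act mainly through ISRE elements, which a complex that includes IRF9 binds. Irgm1, Irgm2 and Igtp (also called Irgm3) are regulatory IRGs that hold the effector IRGs, such as the product of Iigp1 (Irga6), in an inactive state on the cell's own membranes. Ifi47 (Irgd) is another IRG of the effector kind, and Gbp2 is a GBP that is recruited to the vacuole of Toxoplasma gondii in mouse cells.

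In the RefSeq annotation of GRCm38.p6, the 3 GBP genes lie near each other on chromosome 3, with Gbp7 at chr3:142530336-142550151, Gbp3 at chr3:142560016-142573213 and Gbp2 at chr3:142620663-142638008. Irgm1 lies at chr11:48865245-48871420 and Ifi47 at chr11:49076587-49096987. Igtp at chr11:58199556-58207592 and Irgm2 at chr11:58214977-58222783 are neighbours on chromosome 11. The promoters of 7 of the measured genes were found among RefSeq promoter sequences of that build, and the 250 bases before each start were searched for GAS (TTCNNNGAA) and ISRE (GAAA, any 2 bases and GAAA again, which on the other strand reads TTTC, any 2 bases and TTTC). Overlapping matches were allowed.

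The stretches that hold the matches run 5′ to 3′ on the gene's own strand, with the matches in capitals and 10 bases on either side. Gbp7, Gbp3, Gbp2, Igtp and Irgm2 are on the plus strand, at chr3:142530220-142530302, chr3:142559989-142560024, chr3:142620594-142620623, chr11:58199501-58199541 and chr11:58214892-58214932, and Irgm1 is on the minus strand at chr11:48871425-48871460.
Gbp7: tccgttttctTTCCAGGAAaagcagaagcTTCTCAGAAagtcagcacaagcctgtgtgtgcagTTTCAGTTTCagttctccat
Gbp3: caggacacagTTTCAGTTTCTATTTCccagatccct
Gbp2: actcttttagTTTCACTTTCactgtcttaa
Irgm1: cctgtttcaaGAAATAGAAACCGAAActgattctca
Igtp: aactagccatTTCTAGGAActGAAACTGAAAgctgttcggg
Irgm2: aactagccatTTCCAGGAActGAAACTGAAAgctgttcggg
ISRE letters were in the promoters of these 6 genes, and in 3 of them, Gbp7, Igtp and Irgm2, GAS letters were there too. Of 32851 mouse promoters searched over the same length, 2.98% held ISRE, 7.02% held GAS and 0.332% held both. The stretches of Igtp and Irgm2 had the same letter at 40 of 41 positions. Ifi47 had neither motif in this window, and neither had a second Gbp3 promoter. A match describes the letters and is not evidence of binding.

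Signals are arbitrary array units and cannot be compared between genes, because each gene has its own probes. Changes are differences of mean log2(signal + 32), so that changes of dim genes are understated, with 4 arrays in each group. A gene passed where its Benjamini-Hochberg adjusted p over all genes of that comparison was under 0.05 in limma, a linear model with a shared estimate of the spread. The p-values measure the spread between arrays. The tests covered 14786 genes of the blood arrays, 13630 of the spleen arrays and 12133 of the LPS arrays, and the 8 GTPase genes were among them in all 3 sets. The leukocyte gene Ptprc had a median signal of 16706 in blood and 13810 in spleen. Medians of the spleen stromal and macrophage genes Vcam1 (22.1 in blood, 5019 in spleen) and Spic (49.1 in blood, 776 in spleen) went with the tissue labels. Those of Cd5l, Cd163, C1qa, C1qb, C1qc and Marco (64.6 in blood, 109 in spleen) were also higher in spleen. Single arrays of the tissues overlapped on each of these spleen genes. For Cd5l, C1qa, C1qb and C1qc the highest array was a blood array, such as 6012 against 2558 for C1qc. On 15 injury arrays the spiked control RNAs read over 2 times the median of their tissue, and these are named beside the comparisons with sham they touch. Tests of differences between injuries, times, tissues or treatments were not repeated with all of them removed. The blood arrays of the trauma-hemorrhage arm are labelled as such in their description, although their titles also carry the word burn. The burn spleen arrays were taken from their titles, because their descriptions give the trauma-hemorrhage model.

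Trauma-hemorrhage was followed within 2 hr by a rise of all 8 genes in the spleen. The folds ran from 1.82 for Gbp3 to 7.71 for Iigp1, and the median log2 change was 2.00, against -0.06 for all genes. Of all genes tested, 2.44% rose in this comparison. The groups of all 8 did not overlap, with the injured arrays above the shams, as for 6.32% of all genes.

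Among the regulatory IRGs, Irgm1 read 3191, 3165, 4612 and 4311 on the injured arrays and 626, 584, 871 and 611 on the shams. Every injured mouse was several fold above every sham, and the fold was 5.45 (log2 change 2.45, SE 0.20, limma adjusted p = 4.71e-14). Irgm2 read 2641, 3121, 3347 and 3422 on the injured arrays and 811, 731, 716 and 822 on the shams. The injured arrays again lay well above the shams, with a fold of 3.93 (log2 change 1.98, SE 0.23, limma adjusted p = 1.76e-09). Igtp read 10414, 9112, 7506 and 9599.9 on the injured arrays and 2141, 2256, 1742 and 2905 on the shams. Its groups were as far apart, with a fold of 4.04 (log2 change 2.02, SE 0.22, limma adjusted p = 6.24e-10). The effector gene Iigp1 read 1088, 1338, 2269 and 1765 on the injured arrays and 198, 204, 158 and 142 on the shams. The lowest injured array of Iigp1 was above the highest sham by several fold, and it had the highest fold of the 8, 7.71 (log2 change 2.95, SE 0.31, limma adjusted p = 1.36e-10). Ifi47 read 9672, 9597, 10864 and 9881 on the injured arrays and 3947, 3418, 3248 and 3738 on the shams. The shams of Ifi47 were tightly grouped and lay below all injured arrays, with a fold of 2.78 (log2 change 1.47, SE 0.20, limma adjusted p = 3.67e-07).

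Of the GBPs in the same spleens, Gbp2 read 2289, 1660.3, 2229 and 2337 on the injured arrays and 575, 378, 572 and 457 on the shams. The injured array of replicate 2 was the lowest of its group and still above all shams, and the fold was 4.11 (log2 change 2.04, SE 0.30, limma adjusted p = 1.38e-06). Gbp7, which in mouse macrophages has been tied to the assembly of the phagocyte oxidase, read 9961, 10491, 13559 and 12679 on the injured arrays and 4668, 4048, 4248 and 3935 on the shams. The groups were separate, with a fold of 2.73 (log2 change 1.45, SE 0.16, limma adjusted p = 5.31e-10). Gbp3 read 2183, 1878, 2755 and 2872 on the injured arrays and 1466, 1177, 1577 and 1031 on the shams. Its groups came closest to each other, and the fold was 1.82 (log2 change 0.87, SE 0.22, limma adjusted p = 0.00867). Without injured replicate 4 the Gbp3 change was 0.78, adjusted p = 0.0590, and without sham replicate 4 it was 0.76, adjusted p = 0.0598. The other 7 genes passed with each array left out. The arrays were hybridized on 2 days, each with 2 injured and 2 sham arrays, and within each day all 8 genes were higher, with medians of 1.92 and 1.99 and 7 genes passing on each day. In tissue RNA of mixed cells, more cells of a type and more RNA per cell cannot be told apart. The summed signal of natural killer (NK) cell markers was 8461 to 10788 in the injured and 7976 to 10063 in the sham spleens, and 0 of 7 of these markers passed. B cell markers summed to 39279 to 45816 and 46699 to 50483, with 2 of 8 falling, and 2 of 8 T cell markers fell. Dendritic cell markers, of which 1 of 7 fell, summed to 1844 to 2442 against 2656 to 3205, with no overlap. The part of these cell types in the rise was not tested.

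**Figure D1:**
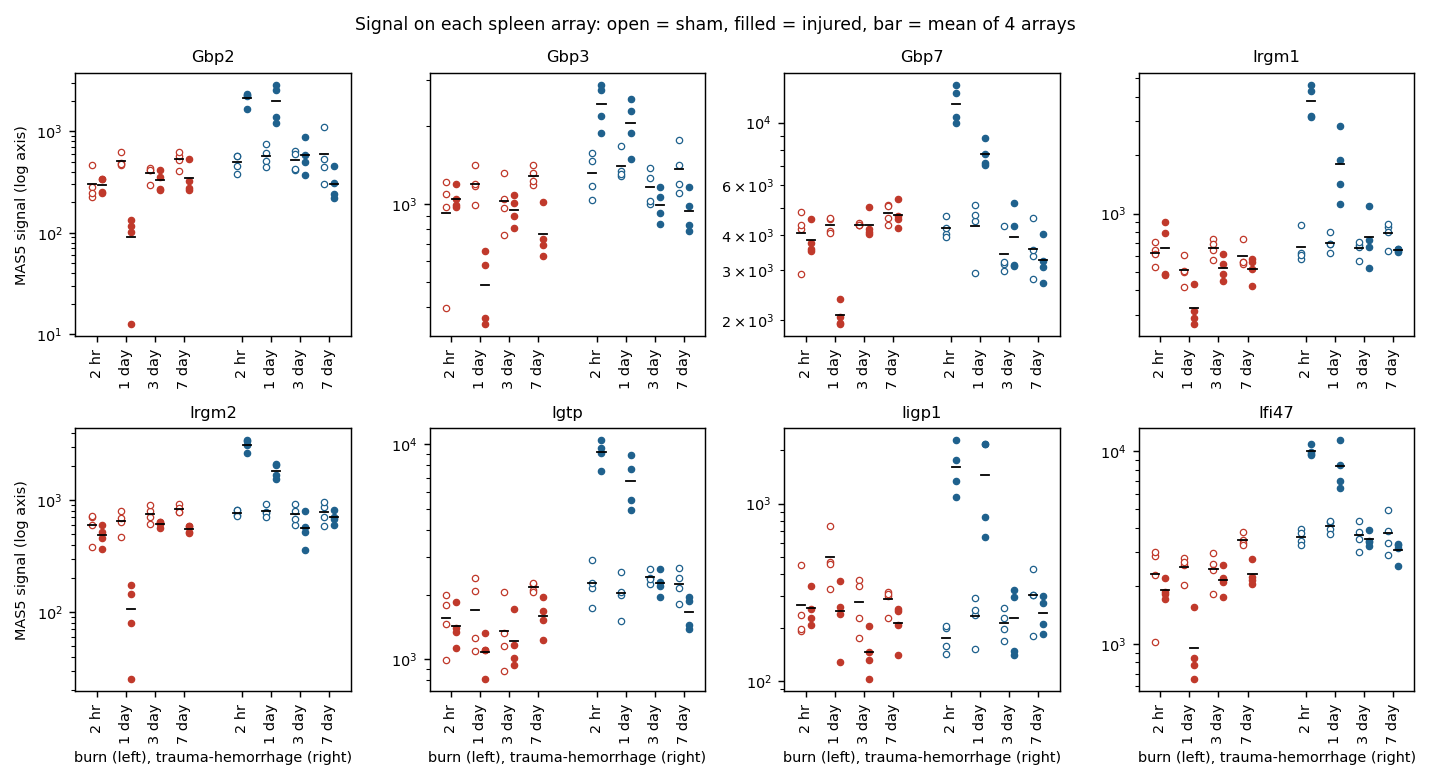
Signal (arbitrary units, log axis) of each gene on every spleen array, with burn on the left and trauma-hemorrhage on the right of each panel, by time after injury. Open points are shams, filled points are injured mice and bars are means of 4 arrays. The filled points of trauma-hemorrhage at 2 hr lie above all their shams in all 8 panels.

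In blood leukocytes 2 hr after trauma-hemorrhage, 7 of the 8 genes rose, where 1.97% of all genes did, and the same 7 had injured arrays all above the shams, as 3.31% of all genes had. The median log2 change was 2.30, against -0.05 for all genes. Iigp1, Gbp2 and Irgm1 had the highest folds, 11.5, 9.70 and 7.42. Within the 2 hybridization days the medians were 2.77 and 1.80, and all 8 genes were higher on both.

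Gbp2 in blood read 6095, 4302, 2568 and 4109 on the injured arrays and 735, 110.1, 407 and 642 on the shams. The shams were widely spread but stayed far below the injured arrays (log2 change 3.28, SE 0.40, limma adjusted p = 2.01e-08). Gbp7 read 16450, 12228, 11085 and 12806 on the injured arrays and 4896, 5389, 4269 and 5187 on the shams. Its groups were separate and its fold was 2.63 (log2 change 1.40, SE 0.24, limma adjusted p = 4.93e-05). Gbp3 read 2194, 1606, 859 and 1844 on the injured arrays and 2020.4, 735, 610 and 295 on the shams. Here sham replicate 1 lay among the injured arrays and the groups overlapped, and Gbp3 did not pass (log2 change 1.05, SE 0.37, limma adjusted p = 0.119). Without that sham the change was 1.53, adjusted p = 0.00796, and without injured replicate 3 it was 1.32, adjusted p = 0.0443. In the same blood 3 of 8 B cell markers fell, and their summed signal was 9251 to 13887 on the injured arrays against 12433 to 42104 on the shams. Of 8 T cell markers 2 rose (sum 42668 to 50963 against 14009 to 49236), of 8 mature neutrophil markers 1 rose (sum 124570 to 168700 against 55902 to 130690) and of 6 monocyte markers 1 fell (sum 15514 to 22785 against 9387 to 32769). The dendritic cell sum was 553 to 877 against 869.9 to 2474, with 0 of 7 markers passing. Spleen macrophage markers summed to 318 to 2691 on the injured arrays against a wide 108 to 23035 on the shams. Erythroid markers summed to 33164 to 76414 against 37623 to 175760. The sums of each of these lists overlapped between the groups, and their part in the rise was not tested.

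Irgm1 in the same blood read 3407, 3477, 2149 and 2768 on the injured arrays and 333, 435, 486 and 244 on the shams. All injured arrays were several fold above the shams (log2 change 2.89, SE 0.27, limma adjusted p = 7.15e-12). Irgm2 read 6225, 7241, 3266 and 3290 on the injured arrays and 693, 665, 1061 and 1473 on the shams. Its injured arrays fell into a higher and a lower pair, hybridized on different days, and both pairs lay above the shams, with a fold of 4.95 (log2 change 2.31, SE 0.35, limma adjusted p = 6.00e-06). Igtp read 9247, 9294, 7577 and 10676 on the injured arrays and 1159, 4479.5, 5256 and 4643 on the shams. Sham replicate 1 stood far below the other shams, and the fold was 2.70 (log2 change 1.43, SE 0.31, limma adjusted p = 0.00217). Without that sham Igtp did not pass (log2 change 0.93, adjusted p = 0.0747). Iigp1 read 1659.6, 1119, 672 and 1351 on the injured arrays and 17.7, 90.5, 103 and 99.5 on the shams. The shams were near the bottom of the signal range and the injured arrays far above them (log2 change 3.52, SE 0.59, limma adjusted p = 3.75e-05). Ifi47 read 11591, 9266, 7221 and 10522 on the injured arrays and 1378, 2479.9, 1925 and 2065 on the shams. The groups were far apart, and its adjusted p was the smallest of the 8 (log2 change 2.29, SE 0.20, limma adjusted p = 3.62e-13). On sham replicate 2 the spiked controls were 2.25 times the median of the blood arrays. Without that array the call of all 8 genes stayed as it was.

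**Figure D2:**
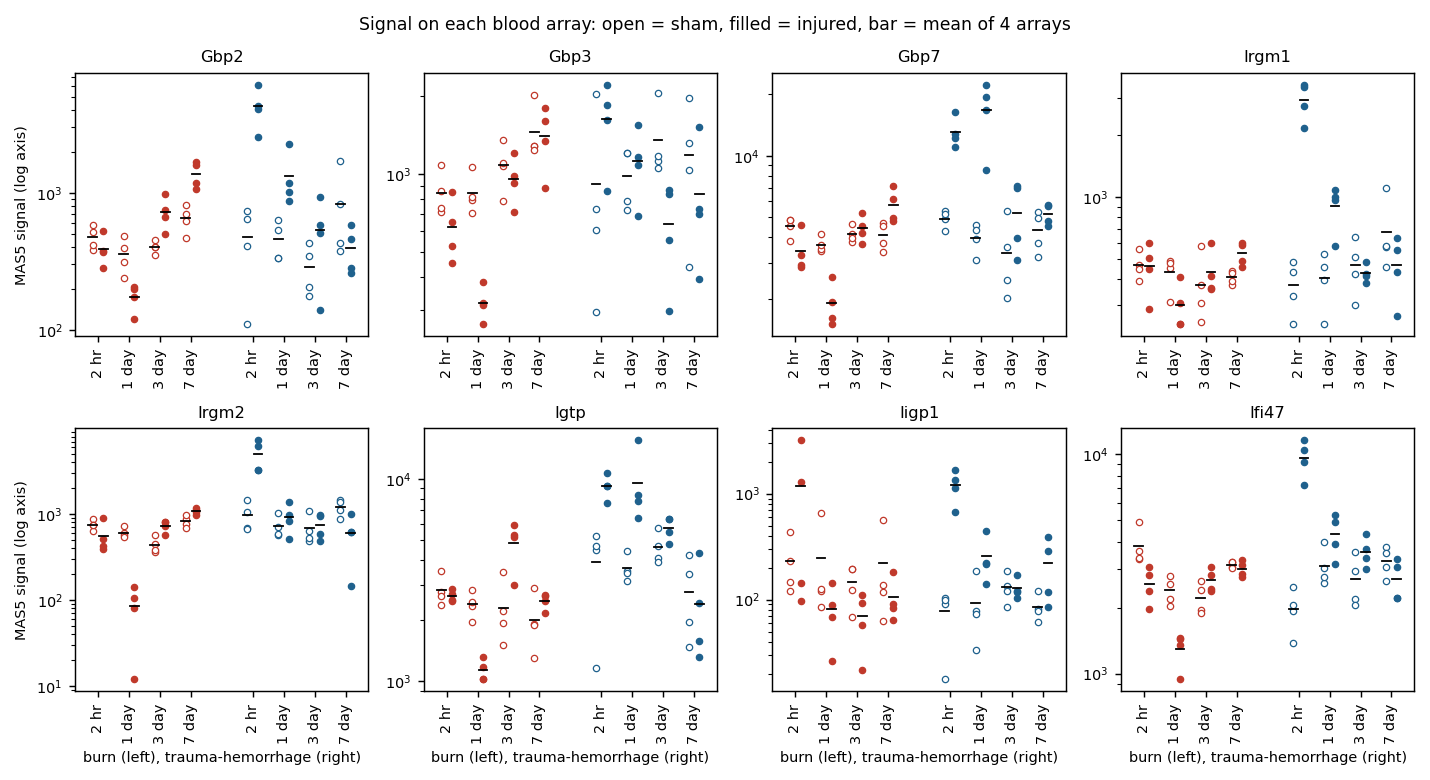
Signal (arbitrary units, log axis) of each gene on every blood array, arranged and marked as for the spleen. The trauma-hemorrhage arrays at 2 hr stand above their shams for all genes except Gbp3, and the burn arrays at 1 day stand below theirs for Gbp2, Gbp3, Gbp7, Irgm2, Igtp and Ifi47.

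At 1 day after trauma-hemorrhage the spleen still had 7 of the 8 genes higher, where 0.631% of all genes rose, and the same 7 had injured arrays all above the shams, as 2.25% of all genes had. The median log2 change was 1.21. Iigp1 read 839, 651, 2165 and 2164 on the injured arrays and 294, 151, 237 and 253 on the shams. Injured replicates 3 and 4 were the highest, and the fold was 5.01 (log2 change 2.32, SE 0.31, limma adjusted p = 3.33e-07). Igtp read 5521, 4965, 8863 and 7662 on the injured arrays and 1515, 1997, 2546 and 2060.5 on the shams. All its injured arrays were above the shams, with a fold of 3.25 (log2 change 1.70, SE 0.22, limma adjusted p = 2.71e-07). Gbp2 read 1381, 1206, 2558 and 2837 on the injured arrays and 503, 616, 440.4 and 739.9 on the shams. It was highest in the same injured replicates 3 and 4, and the fold was 3.18 (log2 change 1.67, SE 0.30, limma adjusted p = 2.63e-04).

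The folds of the others were lower. Irgm1 read 1424, 1117, 1885 and 2832 on the injured arrays and 693, 800.4, 627 and 695 on the shams (log2 change 1.25, SE 0.20, limma adjusted p = 3.00e-05). Irgm2 read 1535, 1672, 2094 and 2055 on the injured arrays and 778, 769.9, 701 and 925 on the shams (log2 change 1.18, SE 0.23, limma adjusted p = 7.71e-04). Both had their higher injured values in replicates 3 and 4 and no overlap with sham. Gbp7 read 7221, 7059.9, 8837 and 7752 on the injured arrays and 5112, 4490.5, 2938 and 4721 on the shams (log2 change 0.86, SE 0.16, limma adjusted p = 3.95e-04). Ifi47 read 7019, 6479, 11389 and 8449 on the injured arrays and 3926, 4287, 3712 and 4348 on the shams (log2 change 1.00, SE 0.20, limma adjusted p = 0.00215). Gbp7 and Ifi47 were also separate from sham, and Ifi47 did not pass without injured replicate 3 (log2 change 0.84, adjusted p = 0.0572). Gbp3 overlapped and did not pass (log2 change 0.52, SE 0.22, limma adjusted p = 0.487). Replicates 1 and 2 were hybridized on one day and 3 and 4 on the other, with median changes of 0.88 and 1.54, all 8 genes higher on both, and 1 and 7 genes passing. No B cell, T cell or NK cell marker passed in this comparison, while 1 of 7 dendritic cell markers fell, and of 8 spleen macrophage markers 1 rose and 2 fell.

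In blood at 1 day 4 of the genes remained higher, against 7.3% of all genes, and these 4 had injured arrays all above the shams, as 8.2% of all genes had. Gbp7 read 19527, 8555, 16816 and 22188 on the injured arrays and 3074, 4569.5, 4329 and 3931 on the shams. Its injured arrays were all above the shams, and the fold of 3.99 was the highest of the 8 at that time (log2 change 2.00, SE 0.24, limma adjusted p = 3.97e-08). Igtp read 6443, 15538, 7818 and 8352 on the injured arrays and 3505, 3452, 4410.1 and 3148 on the shams. Injured replicate 2 stood highest (log2 change 1.31, SE 0.31, limma adjusted p = 0.00230). Gbp2 read 1188, 2265, 1012 and 864 on the injured arrays and 534, 332, 630.2 and 335 on the shams. Its call rested on injured replicate 2 (log2 change 1.43, SE 0.40, limma adjusted p = 0.00866), and without that array the change was 1.14, adjusted p = 0.0676. Irgm1 read 970.3, 1083, 581 and 1007 on the injured arrays and 528, 243, 395 and 458 on the shams. The margin between its groups was narrow (log2 change 1.12, SE 0.27, limma adjusted p = 0.00273). Iigp1 (log2 change 1.24, adjusted p = 0.139), Ifi47 (log2 change 0.47, adjusted p = 0.0854), Irgm2 (log2 change 0.30, adjusted p = 0.608) and Gbp3 (log2 change 0.17, adjusted p = 0.807) did not pass. Ifi47 passed without injured replicate 3 (log2 change 0.61, adjusted p = 0.0357) or sham replicate 1 (log2 change 0.59, adjusted p = 0.0407). The spiked controls were 1.44 to 1.70 times the median of the blood arrays on the injured arrays and 0.890 to 1.10 times it on the shams. With the control level as a covariate 4 genes passed. Other cell types moved in this comparison, with 6 of 7 erythroid, 7 of 7 platelet and 4 of 8 mature neutrophil markers higher and 6 of 8 B cell and 5 of 8 T cell markers lower. Their part in the result was not tested.

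By 3 and 7 days after trauma-hemorrhage few of the changes passed. In spleen none passed at 3 days, where 7.68% of all genes did, or at 7 days, where 8.05% did, and 0 and 2 of the 8 had an unadjusted limma p under 0.05. Their log2 changes lay between -0.43 and 0.18 at 3 days and between -0.79 and -0.13 at 7 days, where Gbp2 passed without sham replicate 1 (log2 change -1.04, adjusted p = 0.0351). On sham replicate 2 at 7 days the spiked controls were 3.60 times the median, and without it Gbp2 (log2 change -0.87, adjusted p = 0.0403) and Gbp3 (log2 change -0.62, adjusted p = 0.0190) passed. In blood 1 gene was lower at each time, Gbp3 at 3 days (log2 change -1.09, SE 0.37, limma adjusted p = 0.0404) and Irgm2 at 7 days (log2 change -1.19, SE 0.35, limma adjusted p = 0.0277), against 7.99% and 2.1% of all genes lower. In the same blood 5 of 8 mature neutrophil markers rose at 3 days and 4 of 7 erythroid markers at each time, and their part was not tested. At those times 3 and 4 of the injured arrays were among the arrays with high spiked controls. With the control level as a covariate the changes were -0.71, adjusted p = 0.269 for Gbp3 and -0.20, adjusted p = 0.967 for Irgm2. Gbp3 did not pass without injured replicate 1 (log2 change -1.06, adjusted p = 0.0834), injured replicate 4 (log2 change -0.78, adjusted p = 0.270), sham replicate 1 (log2 change -1.16, adjusted p = 0.0705), sham replicate 2 (log2 change -1.19, adjusted p = 0.0508) or sham replicate 4 (log2 change -0.88, adjusted p = 0.156). Irgm2 did not pass without injured replicate 3 (log2 change -0.66, adjusted p = 0.341), sham replicate 1 (log2 change -1.22, adjusted p = 0.0514), sham replicate 2 (log2 change -1.09, adjusted p = 0.0907) or sham replicate 3 (log2 change -1.11, adjusted p = 0.0717). Gbp7 at 3 days, which did not pass (log2 change 0.66, SE 0.24, limma adjusted p = 0.0542), passed without injured replicate 2 (log2 change 0.89, adjusted p = 0.0121), injured replicate 3 (log2 change 0.77, adjusted p = 0.0265) or sham replicate 3 (log2 change 0.92, adjusted p = 0.00761).

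The time course after trauma-hemorrhage was tested directly. The changes at the 4 times differed for all 8 genes in blood, where 9.34% of all genes differed, and for all 8 in spleen, where 8.37% did (limma F test). In spleen the change at 1 day was lower than at 2 hr for 1 gene, Irgm1, with a difference of -1.20 (95% interval -1.77 to -0.63, limma adjusted p = 0.0327). Of all genes, 0.308% differed in either direction. The changes at 3 and 7 days were lower than at 2 hr for all 8 (median differences of -2.01 and -2.28 log2 units). At those times 5.96% and 7.78% of all genes differed from 2 hr in either direction. In blood 5.14% of all genes differed between 1 day and 2 hr in either direction. The change at 1 day was lower than at 2 hr for 4 of the 8 genes (median difference over the 8 genes -1.80). Those 4 were Irgm1 (difference -1.77, adjusted p = 0.00247), Ifi47 (difference -1.82, adjusted p = 1.64e-05), Irgm2 (difference -2.00, adjusted p = 0.0101) and Gbp2 (difference -1.85, adjusted p = 0.0382). At 3 and at 7 days 6 of the blood changes were lower than at 2 hr, where 4.95% and 5.48% of all genes differed in either direction. Between 1 day and 2 hr Gbp7 had the opposite sign without passing, with a difference of 0.60 (95% interval -0.07 to 1.27, limma adjusted p = 0.330).

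**Figure D3:**
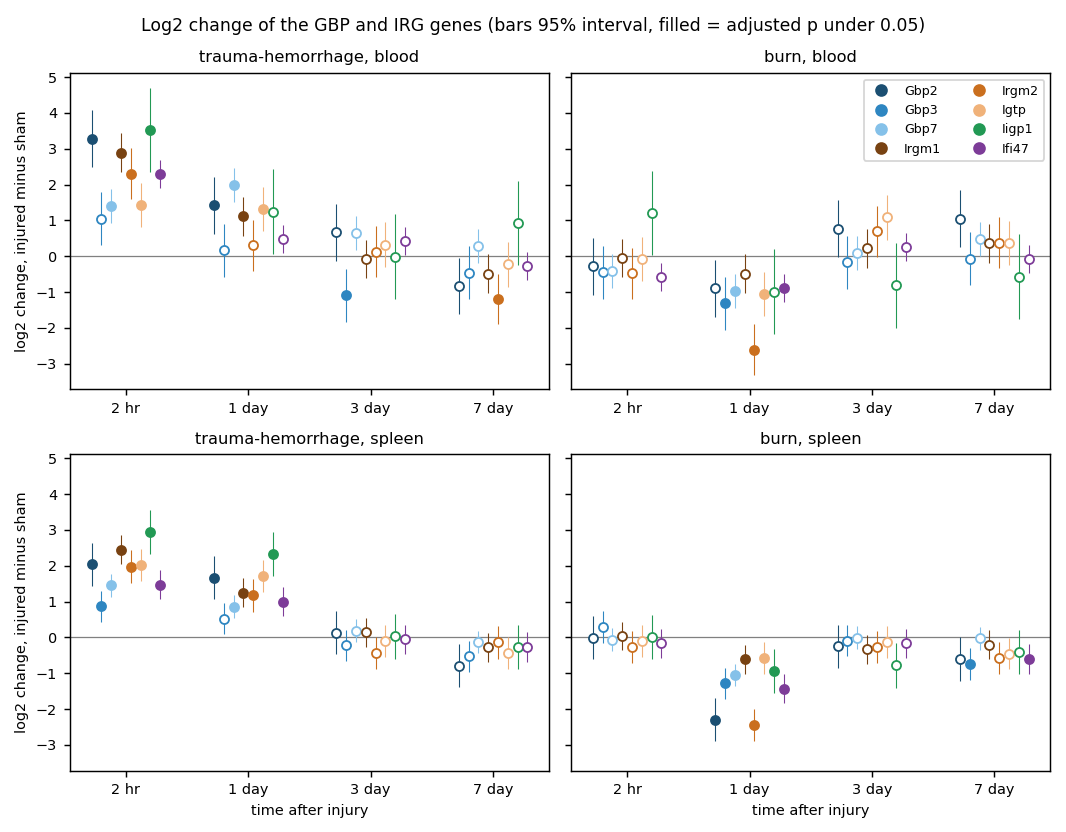
Log2 change from sham of each gene by time after injury, for burn and trauma-hemorrhage in blood and spleen. Bars are 95% intervals from limma over 4 arrays a group, and filled points passed at an adjusted p under 0.05. After trauma-hemorrhage the points lie between 0.87 and 3.52 at 2 hr and between -1.09 and 0.66 at 3 days, and after burn all lie below 0 at 1 day.

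At 2 hr after burn none of the 8 genes passed in blood (2.94% of all genes did) or in spleen (4.92% did), and 2 and 0 of them had an unadjusted limma p under 0.05. In blood Iigp1 read 142, 1280.2, 3183 and 97.5 on the injured arrays and 146, 432, 233 and 121 on the shams. Injured replicates 2 and 3 were above all shams, replicate 1 lay among them and replicate 4 below them (log2 change 1.21, SE 0.59, limma adjusted p = 0.323), and without injured replicate 4 the gene passed (log2 change 1.91, adjusted p = 0.0405). The other 7 genes had blood changes between -0.57 and -0.05. In spleen the 8 changes ran from -0.27 to 0.29. On sham replicates 1 and 3 of that spleen comparison the spiked controls were 2.00 and 6.78 times the median, and without them Ifi47 was lower (log2 change -0.63, adjusted p = 0.0248).

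At 1 day after burn the genes were lower than in sham. In spleen all 8 fell, where 27.7% of all genes fell and 50% passed in either direction, so that a fall in itself was common there. The median log2 change was -1.17, and 5 genes had injured arrays all below the shams. Of all genes, 34.5% had groups that did not overlap in either direction. Irgm2 read 145, 25.0, 173 and 79.4 on the injured arrays and 632, 472, 794 and 687 on the shams. All injured arrays were far below the shams, and the fold was 5.41 lower (log2 change -2.44, SE 0.23, limma adjusted p = 1.45e-13). Gbp2 read 101, 116, 12.6 and 133 on the injured arrays and 468, 489, 470.4 and 624 on the shams. Injured replicate 3 was close to the bottom of the range, and the other injured arrays were also below every sham (log2 change -2.30, SE 0.30, limma adjusted p = 5.33e-09). Ifi47 read 779, 653, 847 and 1543 on the injured arrays and 2569.5, 2780, 2027 and 2655 on the shams. Injured replicate 4 was the highest of its group and still below the shams (log2 change -1.43, SE 0.20, limma adjusted p = 5.80e-08). Gbp7 read 1938, 1948, 2384 and 2047 on the injured arrays and 4147, 4065, 4547 and 4591 on the shams. The groups were separate by a wide margin (log2 change -1.05, SE 0.16, limma adjusted p = 1.84e-07). Gbp3 read 362, 581, 343 and 660.5 on the injured arrays and 992, 1173, 1189.6 and 1409 on the shams. Its injured arrays also lay below all shams (log2 change -1.28, SE 0.22, limma adjusted p = 2.48e-06).

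Irgm1 (log2 change -0.61, SE 0.20, limma adjusted p = 0.0106), Igtp (log2 change -0.58, SE 0.22, limma adjusted p = 0.0257) and Iigp1 (log2 change -0.94, SE 0.31, limma adjusted p = 0.00925) fell less and had overlapping groups. Igtp did not pass without injured replicate 1 (log2 change -0.45, adjusted p = 0.114), sham replicate 2 (log2 change -0.40, adjusted p = 0.159) or sham replicate 4 (log2 change -0.46, adjusted p = 0.109). Iigp1 did not pass without injured replicate 4 (log2 change -0.70, adjusted p = 0.0608) or sham replicate 4 (log2 change -0.74, adjusted p = 0.0603). On injured replicates 1, 2 and 3 the spiked controls were 3.09, 3.42 and 4.30 times the median, and on replicate 4 they were 0.961 times it. With replicate 4 as the only injured array, 6 of the 8 genes still passed, under the assumption that it varies like the other groups. Igtp (log2 change -0.28, adjusted p = 0.635) and Irgm1 (log2 change -0.74, adjusted p = 0.0950) did not. The second Gbp7 probe set did not fall (log2 change 0.40, adjusted p = 0.287), and with the mean of both the change was -0.33, adjusted p = 0.106. The second Iigp1 probe set did not pass (log2 change -0.25, adjusted p = 0.590), and with the mean of both the Iigp1 change was -0.60, adjusted p = 0.0808. Lymphocyte markers fell in the same spleens, 6 of 8 for B cells, 7 of 8 for T cells and 6 of 7 for NK cells. The summed NK cell signal was 2819 to 3922 against 12333 to 13569, the T cell sum 19368 to 22435 against 44911 to 46505 and the B cell sum 23860 to 28089 against 51990 to 58715. Dendritic cell markers, of which 5 of 7 fell, summed to 1285 to 2863 against 3446 to 5012, and monocyte markers, of which 4 of 6 fell, to 6828 to 14375 against 20270 to 22429. Of 7 platelet markers 1 rose, and their sum was 4999 to 6550.3 against 2050.3 to 3665. The part of these cell types in the fall of the GTPases was not tested.

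In blood 1 day after burn 5 of the 8 genes fell, where 16.3% of all genes did, and 6 had groups that did not overlap, as 30.4% of all genes had. All 8 log2 changes were below 0, with a median of -0.98, against -0.01 for all genes. Irgm2 read 106, 81.2, 11.9 and 142 on the injured arrays and 729, 607, 565 and 536 on the shams. Every injured array was several fold below every sham, and the fold was 6.10 lower (log2 change -2.61, SE 0.35, limma adjusted p = 2.88e-08). Gbp3 read 264, 384, 313 and 317 on the injured arrays and 791, 1059, 818 and 706 on the shams. Its groups were separate, with a fold of 2.48 lower (log2 change -1.31, SE 0.37, limma adjusted p = 0.00485). Igtp read 1313, 1177, 1032 and 1024 on the injured arrays and 2365, 2463, 1973 and 2837 on the shams. Its injured arrays were tightly grouped below the shams (log2 change -1.06, SE 0.31, limma adjusted p = 0.00710). Gbp7 read 1608, 1501, 2561 and 1924 on the injured arrays and 4159.5, 3409, 3484 and 3646 on the shams. All its injured arrays were lower (log2 change -0.97, SE 0.24, limma adjusted p = 0.00116). The second Gbp7 probe set did not pass (log2 change -0.35, limma adjusted p = 0.532), although Gbp7 still passed with the mean of both. Ifi47 read 941, 1448, 1438 and 1348 on the injured arrays and 2197, 2798, 2024 and 2565 on the shams. Injured replicate 1 was the lowest, and the others were also below the shams (log2 change -0.88, SE 0.20, limma adjusted p = 3.21e-04).

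Gbp2 in that blood read 119, 173, 206 and 199 on the injured arrays and 311, 482, 394 and 238 on the shams. The groups did not overlap, although the gene did not pass (log2 change -0.89, SE 0.40, limma adjusted p = 0.0940). Its call depended on the setting. The second Gbp2 probe set passed (log2 change -1.08, adjusted p = 0.0196), as did the mean of both (log2 change -0.99, adjusted p = 0.0284). Gbp2 also passed with the 8 arrays alone (adjusted p = 0.0319) or without arrays of high spiked controls (adjusted p = 0.0290). It did not pass with other pseudocounts, quantile normalization or any single array left out. Irgm1 (log2 change -0.49, SE 0.27, limma adjusted p = 0.199) and Iigp1 (log2 change -0.99, SE 0.59, limma adjusted p = 0.249) did not pass. On each hybridization day alone all 8 genes were lower, in blood with medians of -1.16 and -0.90 and in spleen with medians of -1.12 and -1.21. The genes that passed on each day numbered 6 and 3 in blood and 6 and 5 in spleen. B cell, T cell and NK cell markers fell in this blood too, 6 of 8, 6 of 8 and 6 of 7, and 5 of 8 mature neutrophil markers rose. The NK cell sum was 2008 to 5281 against 13679 to 17617, the T cell sum 12473 to 17518 against 37589 to 43673 and the B cell sum 9486 to 12209 against 49567 to 56458, with no overlap. Monocyte markers, of which 3 of 6 fell, summed to 10606 to 13465 against 18125 to 23355, and mature neutrophil markers to 112830 to 133320 against 45349 to 79670. Of 8 spleen macrophage markers 6 rose and 1 fell, with a sum of 4332 to 10934 against 531 to 2012. The part of these markers in the fall was not tested.

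Later after burn 2 genes passed, both in spleen at 7 days. In blood none of the genes passed at 3 days (1.08% of all genes did) or 7 days (2.04% did), and 1 and 2 of them had an unadjusted limma p under 0.05. Igtp at 3 days had the lowest adjusted p at that time (log2 change 1.09, SE 0.31, limma adjusted p = 0.0666), and it passed without injured replicate 1 (log2 change 1.30, adjusted p = 0.0258) or sham replicate 4 (log2 change 1.31, adjusted p = 0.0313). Gbp2 at 7 days read 1671, 1604, 1181 and 1071 on the injured arrays and 619, 819, 700.1 and 466 on the shams. All injured arrays were above the shams, but the gene did not pass (log2 change 1.05, SE 0.40, limma adjusted p = 0.200). Of the 8 genes 3 had separate groups at 7 days, where 13.6% of all genes had. In spleen none passed at 3 days (0.572% of all genes did), and 1 of the 8 had an unadjusted limma p under 0.05. On sham replicate 2 of that time the spiked controls were 2.20 times the median, and without it none of the 8 passed. At 7 days all 8 changes were below 0 and 2 genes passed, Gbp3 (log2 change -0.74, SE 0.22, limma adjusted p = 0.0117) and Ifi47 (log2 change -0.60, SE 0.20, limma adjusted p = 0.0341), against 7.83% of all genes lower. Gbp3 did not pass without injured replicate 3 (log2 change -0.65, adjusted p = 0.0611). Ifi47 did not pass without any one of injured replicates 1 to 3 (adjusted p of 0.0981, 0.0747 and 0.0954) or of sham replicates 1 to 4 (adjusted p of 0.0637, 0.0553, 0.0903 and 0.0521). In these spleens 7 of 8 B cell, 7 of 8 T cell and 4 of 7 NK cell markers fell, with summed signals, injured against sham, of 25559 to 43811 against 55546 to 58010, 24244 to 33445 against 47165 to 52393 and 6782 to 8355 against 11782 to 13719. Of the mature neutrophil markers 7 of 8 rose (sum 73393 to 109840 against 21215 to 26008), and of the erythroid markers 7 of 7 (sum 41440 to 67782 against 1908 to 6314). None of these sums overlapped between the groups, and their part in the fall of Gbp3 and Ifi47 was not tested.

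The changes after burn at the 4 times differed for 5 genes in blood, Gbp2, Gbp7, Irgm2, Igtp and Ifi47, where 14.5% of all genes differed. In spleen they differed for 5 genes, Gbp2, Gbp3, Gbp7, Irgm2 and Ifi47, where 45.8% of all genes did. The spleen change at 1 day was below that at 2 hr for the same 5 genes (37.5% of all genes differed), with differences of -2.16 (95% interval -2.80 to -1.52, limma adjusted p = 3.53e-07) for Irgm2 and -2.29 (95% interval -3.15 to -1.44, limma adjusted p = 2.68e-05) for Gbp2. In blood it was below that at 2 hr for 1 gene, Irgm2 (7.53% of all genes differed), with a difference of -2.13 (95% interval -3.13 to -1.13, limma adjusted p = 0.00316). The spleen differences include the injured arrays at 1 day and the shams at 2 hr that had high spiked controls. They were not tested with all of those arrays removed.

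The study set the 2 injuries against each other over time. The change after trauma-hemorrhage differed from that after burn for all 8 genes in blood (limma F test over the 4 times, adjusted p from 1.06e-10 for Ifi47 to 0.0175 for Iigp1), where 19.8% of all genes differed. In spleen it also differed for all 8 (adjusted p from 3.42e-14 for Irgm2 to 1.24e-04 for Gbp3), where 19.9% did. The 2 injuries had sham groups of their own, so these tests share no array between the injuries.

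At 2 hr in spleen 7 genes were higher after trauma-hemorrhage than after burn, relative to their own shams. Of all genes, 2.16% differed in either direction. The differences had a median of 2.08 log2 units and reached 2.94 (95% interval 2.07 to 3.81, limma adjusted p = 4.35e-06) for Iigp1 and 2.41 (95% interval 1.84 to 2.98, limma adjusted p = 2.42e-08) for Irgm1. The exception was Gbp3, at 0.58 (95% interval -0.04 to 1.20, limma adjusted p = 0.455). At 1 day in spleen all 8 were higher, with a median of 2.36, where 31.8% of all genes differed in either direction. Gbp2 had the largest difference of the 8, 3.97 (95% interval 3.12 to 4.82, limma adjusted p = 6.89e-11), followed by Irgm2 at 3.61 (95% interval 2.97 to 4.25, limma adjusted p = 1.26e-13) and Iigp1 at 3.27 (95% interval 2.40 to 4.14, limma adjusted p = 2.81e-08). The smallest difference was that of Gbp3, at 1.80 (95% interval 1.18 to 2.42, limma adjusted p = 6.74e-06). Among the burn arrays, injured replicates 1 to 3 at 1 day and sham replicates 1 and 3 at 2 hr had high spiked controls. The spleen differences were not tested with all of those arrays removed.

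In blood at 2 hr 1.07% of all genes differed in either direction. Of the 8, with a median difference of 2.55, 5 genes were higher after trauma-hemorrhage than after burn. They were Gbp2 at 3.56 (95% interval 2.43 to 4.68, limma adjusted p = 2.78e-05), Irgm1 at 2.94 (95% interval 2.18 to 3.71, limma adjusted p = 3.96e-07), Ifi47 at 2.85 (95% interval 2.30 to 3.41, limma adjusted p = 7.44e-11), Irgm2 at 2.79 (95% interval 1.79 to 3.78, limma adjusted p = 3.21e-04) and Gbp7 at 1.82 (95% interval 1.15 to 2.49, limma adjusted p = 5.26e-04). For Igtp the difference was 1.51 (95% interval 0.63 to 2.39, limma adjusted p = 0.0760), for Iigp1 2.31 (95% interval 0.64 to 3.99, limma adjusted p = 0.215) and for Gbp3 1.50 (95% interval 0.45 to 2.54, limma adjusted p = 0.184). At 1 day 7 genes were higher, all but Iigp1 at 2.23 (95% interval 0.56 to 3.91, limma adjusted p = 0.0569). Of all genes, 16.3% differed in either direction. The highest of the 8 were Gbp7 at 2.97 (adjusted p = 2.51e-09) and Irgm2 at 2.91 (adjusted p = 1.72e-05). At 3 and 7 days no gene of the 8 differed between the injuries in either tissue. All-gene shares there were 0.372% and 2.37% in blood and 0.022% and 0% in spleen. Of the 8, 0 and 3 had an unadjusted limma p under 0.05 in blood and 0 and 0 in spleen. The nearest to the threshold was Gbp2 in blood at 7 days, where trauma-hemorrhage minus burn was -1.88 (95% interval -3.01 to -0.76, limma adjusted p = 0.0542).

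**Figure D4:**
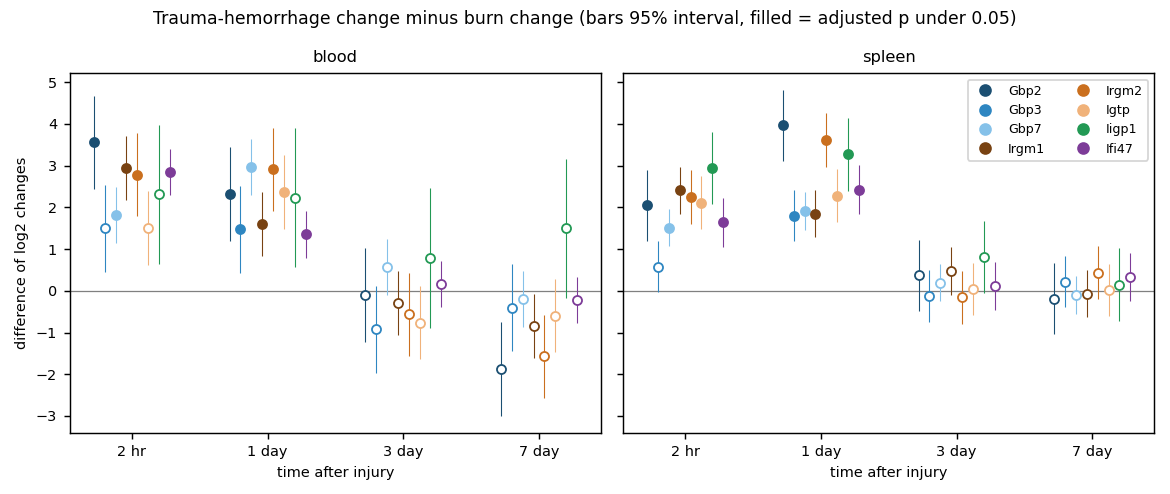
Log2 change after trauma-hemorrhage minus log2 change after burn for each gene by time, in blood and spleen. Bars are 95% intervals from limma, and filled points passed at an adjusted p under 0.05. The points at 2 hr and 1 day lie above 0 and those at 3 and 7 days scatter around it.

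The change was also set against that of the other tissue. Over the 4 times it differed between blood and spleen for 2 genes after burn, Gbp2 (limma F test, adjusted p = 0.00650) and Igtp (adjusted p = 0.0406), where 13% of all genes differed. After trauma-hemorrhage it differed for 2 genes, Gbp7 (adjusted p = 0.00920) and Ifi47 (adjusted p = 0.0441), where 16.8% did. With single arrays left out, 1 to 3 genes differed after either injury. Gbp7 at 1 day after trauma-hemorrhage rose further in blood than in spleen, by 1.14 (95% interval 0.57 to 1.70, limma adjusted p = 0.00808), where 8.5% of all genes differed. Gbp2 after burn was higher in blood than in spleen relative to sham, by 1.41 (95% interval 0.41 to 2.41, limma adjusted p = 0.0481) at 1 day and by 1.66 (95% interval 0.65 to 2.66, limma adjusted p = 0.0413) at 7 days, where 13.2% and 3.95% of all genes differed. For Irgm1 at 2 hr after trauma-hemorrhage the difference was 0.44 (95% interval -0.21 to 1.10, limma adjusted p = 0.999), and for Gbp2 it was 1.24 (95% interval 0.24 to 2.24, limma adjusted p = 0.694), so that differences of over 1 log2 unit lay within the intervals although neither passed.

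LPS, which had arrays of its own with lower signals, raised 2 of the 8 genes at 2 hr in blood, where 1.35% of all genes rose, and 7 of the 8 had an unadjusted limma p under 0.05. Gbp2 read 1011, 567, 713 and 867 on the LPS arrays and 70.2, 172, 168 and 573 on the shams. Sham replicate 4 lay just above the lowest LPS array, and the fold was 3.59 (log2 change 1.84, SE 0.39, limma adjusted p = 0.0200). Gbp2 did not pass without LPS replicate 1 (log2 change 1.72, adjusted p = 0.0811), 3 (log2 change 1.88, adjusted p = 0.0568) or 4 (log2 change 1.79, adjusted p = 0.0643), or without sham replicate 1 (log2 change 1.46, adjusted p = 0.0580) or 2 (log2 change 1.80, adjusted p = 0.0564). Gbp7 read 2987, 2324, 2470.5 and 2692 on the LPS arrays and 1181, 1318, 1456 and 2107 on the shams. Its groups were separate (log2 change 0.80, SE 0.14, limma adjusted p = 0.00992). Iigp1 read 203, 301, 217 and 377 on the LPS arrays and 33.3, 88.5, 54.4 and 676 on the shams. The other shams were below all LPS arrays and sham replicate 4 was above them all (log2 change 1.01, SE 0.49, limma adjusted p = 0.357). Of 8 mature neutrophil markers 2 rose, and their sum was 24744 to 30003 against 8208 to 23257, with no overlap. The ratio of 3′ to 5′ Gapdh signal, a measure of RNA quality, was 1.40 to 1.54 on the LPS arrays and 1.62 to 2.01 on the shams. It also did not overlap in some injury comparisons. Injured against sham, it was 2.26 to 2.78 against 1.75 to 2.11 in burn blood at 2 hr. In trauma-hemorrhage blood at 3 days it was 1.75 to 2.34 against 2.35 to 3.72, and in burn spleen at 3 days 1.89 to 2.13 against 2.27 to 3.21. In trauma-hemorrhage blood at 1 day the ratio overlapped narrowly, at 1.665 to 2.54 against 2.51 to 3.31. The part of the neutrophil markers or of this ratio in the results was not tested.

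Sham replicate 4 was the highest sham for Irgm1 too, which read 979.6, 841, 687 and 723 on the LPS arrays and 355, 419, 379 and 976 on the shams (log2 change 0.68, SE 0.25, limma adjusted p = 0.198). Irgm2 read 789, 487, 450.4 and 482 on the LPS arrays and 116, 255, 197 and 531 on the shams (log2 change 1.07, SE 0.30, limma adjusted p = 0.0798). In each the single high sham overlapped with the LPS arrays. Without sham replicate 4, 7 of the 8 genes passed, with Iigp1 at 1.76, adjusted p = 2.33e-04, Irgm2 at 1.42, adjusted p = 0.00158 and Irgm1 at 1.00, adjusted p = 0.00321. Gbp3 was then at 0.91, adjusted p = 0.0148 and Igtp at 0.52, adjusted p = 0.0350. Ifi47 did not pass with that array (log2 change 0.29, SE 0.12, limma adjusted p = 0.246) or without it. At 1 day after LPS none of the 8 genes passed, nor did any gene of the array (0% of all genes), with log2 changes between -0.11 and 0.32 and 1 of the 8 at an unadjusted limma p under 0.05.

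**Figure D5:**
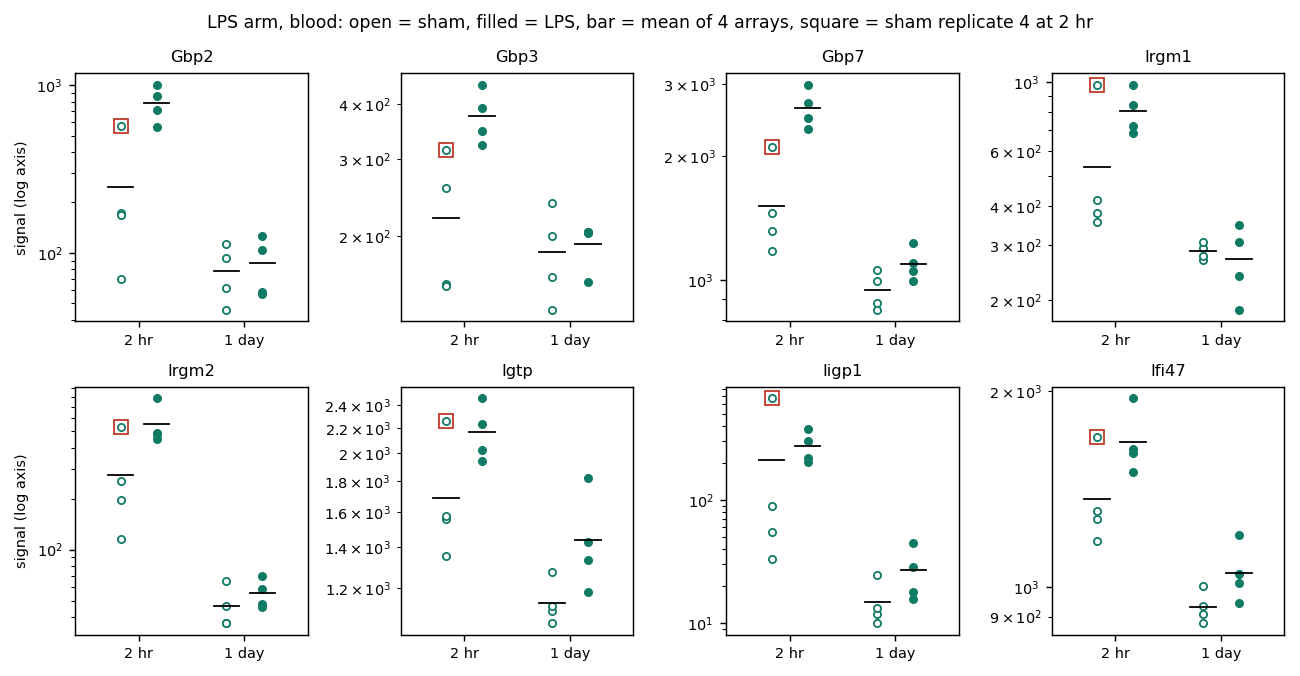
Signal (arbitrary units, log axis) of each gene on every array of the LPS arm at 2 hr and 1 day. Open points are shams, filled points are LPS-treated mice, bars are means of 4 arrays, and the square is sham replicate 4 at 2 hr, which is the highest sham of its time in all 8 panels.

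Once the LPS arrays had been scaled to the injury arrays, the changes after LPS and after trauma-hemorrhage differed in blood for 4 genes over the 2 shared times, where 5.52% of all genes differed. They were Gbp7 (adjusted p = 5.03e-04), Irgm1 (adjusted p = 6.87e-05), Igtp (adjusted p = 0.0461) and Ifi47 (adjusted p = 7.01e-07) in limma's F test. At 2 hr LPS minus trauma-hemorrhage was below 0 for Irgm1, at -2.24 (95% interval -3.00 to -1.48, limma adjusted p = 4.54e-04), and for Ifi47, at -2.05 (95% interval -2.56 to -1.54, limma adjusted p = 1.31e-07). Of all genes, 0.105% differed in either direction. At 1 day LPS minus trauma-hemorrhage was below 0 for Gbp7, at -1.77 (95% interval -2.40 to -1.15, limma adjusted p = 3.01e-04), and Irgm1, at -1.23 (95% interval -1.98 to -0.47, limma adjusted p = 0.0288). Of all genes, 10.3% differed in either direction. Against burn the LPS changes differed for 6 genes, all but Irgm1 and Iigp1, where 18.7% of all genes differed. LPS minus burn was above 0 at 2 hr for Gbp2, at 2.21 (95% interval 1.04 to 3.39, limma adjusted p = 0.0485). At 1 day it was above 0 for 5 genes, of which Irgm2 had the largest difference, 2.86 (95% interval 1.86 to 3.86, limma adjusted p = 8.61e-06). Of all genes, 0.721% at 2 hr and 20% at 1 day differed in either direction. The doses and severities are not matched, so these differences compare the animals as treated. In the tests of the LPS arm alone, Iigp1 was read from another probe set than in the injury arms. The comparisons of LPS with injury read it from the same probe set on all arrays.

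Ordered by mean signal over the 16 groups of the spleen, the trauma-hemorrhage group at 2 hr was first for all 8 genes and the trauma-hemorrhage group at 1 day came next for all 8. Irgm1, for example, stood at 3819.7 ± 751 (SD) and then 1814 ± 748, and the lowest group, burn at 1 day, stood at 325 ± 72.9. The burned group at 1 day was last for 7 genes, and for Iigp1 the burned group at 3 days was last, at 146 ± 42.6. Most neighbours in the order lay within the larger of their SDs. In spleen 2 to 4 of the 15 steps between neighbours exceeded it, and in blood 0 to 3 of 15 did. In blood the trauma-hemorrhage group at 2 hr was first for 6 genes, and the one at 1 day was first for Gbp7 (16772 ± 5900.2 against 13142 ± 2318 at 2 hr) and Igtp (9537 ± 4080.2 against 9199 ± 1268), in both cases within the SD. The sham groups were not level. Over the 8 sham groups of the blood the group means of Irgm2 ran from 441 to 1201 and those of Gbp2 from 289 to 832, while in spleen those of Irgm2 ran from 603 to 838.

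Across the 18 comparisons the changes of the genes followed each other. Pearson's r between pairs of the 8 genes ran from 0.724 to 0.930, with a median of 0.838 over 28 pairs. The r of each gene with the mean of the others ran from 0.822 for Iigp1 to 0.954 for Ifi47. These are descriptions, since the comparisons share tissues, normalization and, within a tissue, 1 estimate of the spread. Ifi47 had neither GAS nor ISRE in its promoter window, and the part of the motifs in the shared changes was not tested. The genes whose changes were most like the mean of the 8, among 11294 genes ranked over the same 18 comparisons, were Usp18 (r = 0.964), Zbp1 (r = 0.961), Parp14 (r = 0.955), Xaf1 (r = 0.945) and Gzmb (r = 0.929). Usp18 removes the ubiquitin-like protein ISG15 and restrains type I interferon signalling, and Zbp1 is a sensor of Z-form nucleic acid. Gzmb is the cytotoxic protease granzyme B. In all, 18 genes had an r over 0.9.

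The lists of other genes of the pathway are given by counts, with medians to be read against all-gene medians between -0.21 and 0.07, and the values below are log2 changes from sham. Of all genes 1.97% rose in blood and 2.44% in spleen 2 hr after trauma-hemorrhage, and 7.3% and 0.631% at 1 day. Of the ligands, Ifng, which encodes interferon-gamma, rose in the spleen 2 hr after trauma-hemorrhage by 1.61 (adjusted p = 0.0211) on the log2 scale, with signals of 560.4 ± 259 against 149 ± 39.0 (SD). In blood at that time its change was 0.26 (adjusted p = 0.920). After burn at 1 day Ifng rose in blood, by 2.23 (adjusted p = 8.94e-04), and was lower in spleen, at -1.49 (adjusted p = 0.00457). The higher Ifng in blood stood beside 5 of the 8 GTPase genes that fell, and the lower Ifng in spleen beside a fall of all 8. The part of Ifng in these changes was not tested. Ifnb1, the gene of interferon-beta, was tested in the blood injury arrays only and passed in none of the 8 comparisons, with changes between -0.38 and 0.23. Of 6 genes for interferons and inducing cytokines tested 2 hr after trauma-hemorrhage, 0 passed in blood and 1 in spleen, and of 7 receptors and kinases 0 passed in either tissue.

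Among the transcription factors 3 of 6 rose in blood and 3 of 5 in spleen at 2 hr after trauma-hemorrhage. Stat2 rose by 2.17 (adjusted p = 3.75e-05) in blood and 2.16 (adjusted p = 1.51e-06) in spleen, Irf9, its partner in the type I complex, by 1.39 (adjusted p = 2.31e-05) and 0.89 (adjusted p = 0.00163), and Irf1 by 1.36 (adjusted p = 0.00117) and 0.89 (adjusted p = 0.00177). At 1 day in spleen Irf1 was still higher, by 0.90 (adjusted p = 0.00415). In the spleen 1 day after burn 4 of 5 fell, where 27.7% of all genes did, among them Irf2 (log2 change -3.19, adjusted p = 2.59e-21), Irf9 (log2 change -1.56, adjusted p = 1.70e-09) and Irf8 (log2 change -1.53, adjusted p = 1.88e-09). In blood 1 day after burn Irf2 was at -2.09 (adjusted p = 6.63e-13) and Irf9 at -1.07 (adjusted p = 1.62e-04), while Irf1 rose by 0.83 (adjusted p = 0.0226). Of the feedback inhibitors, Usp18 rose by 4.02 (adjusted p = 3.96e-09) in blood and 3.53 (adjusted p = 3.03e-13) in spleen at 2 hr after trauma-hemorrhage, and Socs3 rose in spleen by 3.01 (adjusted p = 1.28e-07) and did not pass in blood (log2 change 1.51, adjusted p = 0.237). Usp18 was lower 1 day after burn, at -2.57 (adjusted p = 5.09e-10) in spleen and -1.74 (adjusted p = 0.00245) in blood. Socs3 in that blood was higher, at 3.99 (adjusted p = 9.36e-07).

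Of the other GBP and IRG genes, 7 of 19 were measured. Gbp6 rose by 3.28 (adjusted p = 1.35e-07) in blood and 1.73 (adjusted p = 4.70e-07) in spleen at 2 hr after trauma-hemorrhage and by 1.79 (adjusted p = 6.49e-07) in spleen at 1 day. Gbp6 was lower 1 day after burn, at -2.26 (adjusted p = 2.68e-05) in blood and -2.06 (adjusted p = 3.09e-10) in spleen. The other 6 (Gbp2b, Gbp8, Gm12185, Gm4951, Irgc1 and Irgq) did not pass at 2 hr or 1 day after trauma-hemorrhage in either tissue. Of these, Gm12185 had both GAS and ISRE letters in its promoter window, Gbp2b had ISRE letters and Irgq had neither. At 1 day after burn Gbp8 (log2 change -1.13, adjusted p = 4.16e-04) and Gbp2b (log2 change -0.95, adjusted p = 0.0361) were lower in spleen, and Irgq (log2 change -1.25, adjusted p = 0.00365), Irgc1 (log2 change -1.41, adjusted p = 0.00988) and Gm12185 (log2 change -1.19, adjusted p = 0.0241) in blood.

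Of the interferon-gamma targets outside the GTPases, 7 of 13 rose and 1 fell in blood 2 hr after trauma-hemorrhage (median 1.08), and 5 of 14 rose in spleen (median 0.65). The chemokine gene Cxcl10 rose by 4.76 (adjusted p = 2.52e-15) in spleen and Cxcl9 by 3.47 (adjusted p = 3.03e-13). Cxcl9 did not pass in spleen at 1 day (log2 change -0.09, adjusted p = 0.988), when Cxcl10 remained at 1.61 (adjusted p = 0.00788). The checkpoint ligand gene Cd274 rose by 2.15 (adjusted p = 8.16e-07) in blood and 1.53 (adjusted p = 5.58e-05) in spleen, the inflammatory caspase gene Casp4 by 1.97 (adjusted p = 6.70e-04) and 2.46 (adjusted p = 9.12e-13), and the peptide transporter gene Tap1 by 1.94 (adjusted p = 9.61e-07) in blood. In the spleen 1 day after burn 9 of 14 fell, where 27.7% of all genes did, and 1 rose (median -0.89). Among those that fell were Cxcl9 (log2 change -2.81, adjusted p = 2.52e-11), Ciita (log2 change -2.19, adjusted p = 3.61e-12) and the immunoproteasome gene Psmb9 (log2 change -1.91, adjusted p = 3.32e-11). In blood 3 of 13 fell, where 16.3% of all genes did, and 1 rose. After LPS at 2 hr Cxcl10 rose by 2.55 (adjusted p = 0.0478) and Cd274 by 1.40 (adjusted p = 0.00573).

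Of the antiviral targets of type I interferon, 13 of 17 rose 2 hr after trauma-hemorrhage in blood (median 1.68) and 15 of 17 in spleen (median 2.31), and at 1 day 14 of 17 rose in each (medians 1.48 and 2.50). Mx1 rose by 3.77 (adjusted p = 7.10e-09) in blood and 3.92 (adjusted p = 4.80e-14) in spleen at 2 hr, and Ifit3 was still higher at 1 day in spleen, by 3.59 (adjusted p = 5.50e-14). In blood at 1 day the antiviral genes Irf7 (log2 change 3.46, adjusted p = 1.17e-08) and Ifit1 (log2 change 3.79, adjusted p = 3.97e-08) were higher. So were Gbp7, Igtp, Gbp2 and Irgm1, as given above. Irgm2, Iigp1, Ifi47, Gbp3 and Gbp6 (log2 change -0.62, adjusted p = 0.341) did not pass. One day after burn 7 of 17 were lower in spleen (median -0.52), where 27.7% of all genes were, and 2 of 17 in blood (median -0.33), where 16.3% were. After LPS at 2 hr 0 of 17 passed (median 0.66). Partners of the GTPases in autophagy, such as Atg5 and Atg3, did not pass at 2 hr after trauma-hemorrhage, with 0 of 9 in each tissue. In blood at 1 day 4 of 9 were higher, where 7.3% of all genes were, among them Gabarapl2 (log2 change 1.59, adjusted p = 0.00325) and Atg12 (log2 change 1.00, adjusted p = 0.00384), beside the erythroid and platelet markers given above.

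Genes with more than 1 probe set allowed a check within the arrays. The second Gbp2 probe set changed in the same direction as the first in 17 of 18 comparisons, the second Gbp7 probe set in 14 of 18 and the second Iigp1 probe set in 13 of 16 injury comparisons. In no comparison did the pair pass in opposite directions.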

How the data were processed

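The values were deposited by the authors as array intensity, 1 signal per probe set and array. Per the submitters' processing notes they were made with MAS5 in GCOS 1.4. The 2% trimmed mean is 500 on the injury arrays and 120.99 to 140.56 on the LPS arrays, so the LPS arm was tested apart, and its arrays were scaled to the injury arrays only to compare LPS with injury. A gene was read from the probe set with its symbol alone that had the highest mean signal over the arrays of the fit. Probe sets with names ending in _x_at were used only where a gene had no other. A gene was tested where it exceeded the array median on at least 4 arrays. Log2(signal + 32) was computed from the deposited intensity and fitted with limma 3.58.1 in R 4.3.3, 1 mean per group, separately for the 64 blood, 64 spleen and 16 LPS arrays, with Benjamini-Hochberg adjustment over all genes and a threshold of 0.05. Differences between injuries, times and tissues were contrasts or F tests of the same kind, with all 128 injury arrays in 1 fit for the comparison of tissues. The measured genes are described in every comparison. Of each pathway list up to 4 genes with the smallest p are named, and Ifng, Ifnb1, Irf1, Cxcl9, Cxcl10 and the other measured GBP and IRG genes besides. Some listed genes are not reported here. The genes and lists were chosen with earlier results of these data known. Replicate numbers did not pair the arrays by their deviations in any of 18 comparisons (correlation of same-numbered arrays -0.47 to 0.536). The alternatives were pseudocounts of 1 and 100, no filter, the mean of all probe sets, quantile normalization, the spiked control level as a covariate, removal of arrays with spiked controls over 2 times the median, hybridization day or replicate number as a block, each day alone, the 8 arrays alone and each array left out. The number of arrays limits the precision. The calling was tested on simulated data with independent normal noise. The simulation did not model arrays with high spiked controls, hybridization days or shifts of cell types, so it cannot vouch for calls where these matter.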

Additional observations from a re-analysis of the deposited data

Results flagged for a closer look

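Single arrays that stood apart from the rest of their group of 4 by Dixon's criterion for 4 values were found in 17 of 288 gene and group pairs, or 5.9%, and chance flags about 1 in 20. Among the trauma-hemorrhage blood shams at 2 hr, replicate 1 was low for Igtp (signal 1159) and Iigp1 (17.7). Gbp3 was high on sham replicate 4 of trauma-hemorrhage blood at 3 days (2039), and Gbp2 was low on injured replicate 2 of trauma-hemorrhage spleen at 2 hr (1660.3). In burn blood at 1 day Ifi47 was low on injured replicate 1 (941), and sham replicate 3 was high for Iigp1 (663) and low for Irgm1 (311). Gbp3 was high on burn blood sham replicate 2 at 7 days (2017). In burn spleen at 1 day Gbp2 was low on injured replicate 3 (12.6), an array with high spiked controls, and high on sham replicate 4 (624). On burn spleen sham replicate 2 at 3 days, also with high spiked controls, Gbp2 (295) and Gbp7 (4403) stood apart. On burn spleen sham replicate 2 at 7 days Iigp1 (226) and Irgm1 (740) did. In the LPS arm Irgm1 was high on sham replicate 4 at 2 hr (976), Irgm2 was high on LPS replicate 1 at 2 hr (789) and Gbp3 was low on LPS replicate 1 at 1 day (158).

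Changes that differed between injuries, times, tissues or treatments in limma's F test, with p adjusted over all genes of that test, were as follows. Between burn and trauma-hemorrhage in blood the adjusted p was 5.70e-07 for Gbp2, 0.0136 for Gbp3, 1.07e-09 for Gbp7, 4.94e-08 for Irgm1, 1.31e-07 for Irgm2, 4.40e-05 for Igtp, 0.0175 for Iigp1 and 1.06e-10 for Ifi47. In spleen it was 1.53e-10 for Gbp2, 1.24e-04 for Gbp3, 4.83e-11 for Gbp7, 7.11e-11 for Irgm1, 3.42e-14 for Irgm2, 1.12e-09 for Igtp, 3.57e-10 for Iigp1 and 4.85e-10 for Ifi47.

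Between times after trauma-hemorrhage the adjusted p in blood was 6.83e-06 for Gbp2, 0.0188 for Gbp3, 0.00125 for Gbp7, 8.90e-09 for Irgm1, 2.13e-05 for Irgm2, 0.0137 for Igtp, 0.0152 for Iigp1 and 8.90e-09 for Ifi47. In spleen it was 2.02e-06 for Gbp2, 0.00244 for Gbp3, 1.72e-06 for Gbp7, 1.84e-10 for Irgm1, 9.03e-08 for Irgm2, 2.96e-09 for Igtp, 1.94e-08 for Iigp1 and 1.40e-05 for Ifi47. Between times after burn the adjusted p in blood was 0.0267 for Gbp2, 0.00604 for Gbp7, 2.52e-06 for Irgm2, 0.00217 for Igtp and 0.00692 for Ifi47. In burn spleen it was 4.22e-05 for Gbp2, 1.58e-04 for Gbp3, 1.34e-04 for Gbp7, 8.29e-08 for Irgm2 and 6.44e-04 for Ifi47.

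Between blood and spleen the adjusted p was 0.00650 for Gbp2 and 0.0406 for Igtp after burn and 0.00920 for Gbp7 and 0.0441 for Ifi47 after trauma-hemorrhage. Between LPS and burn in blood it was 0.00454 for Gbp2, 0.0133 for Gbp3, 1.41e-04 for Gbp7, 3.05e-06 for Irgm2, 0.0203 for Igtp and 1.97e-04 for Ifi47. Between LPS and trauma-hemorrhage in blood it was 5.03e-04 for Gbp7, 6.87e-05 for Irgm1, 0.0461 for Igtp and 7.01e-07 for Ifi47.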

How the results depend on the processing

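Over all settings other than a left-out array, 235 of 266 counts of genes passing stayed within 1.5 times the reported count. No change of a gene that passed turned its sign. The 31 that moved further are these. Within hybridization day 1 alone, 0 genes passed in trauma-hemorrhage blood at 1, 3 and 7 days, 1 in trauma-hemorrhage spleen at 1 day, 1 in burn blood at 7 days and 1 in burn spleen at 7 days. Within day 2 alone, 2 passed in trauma-hemorrhage blood at 2 hr, 1 at 1 day and 0 at 3 and 7 days, 3 in burn blood and 5 in burn spleen at 1 day, and 0 in burn spleen at 7 days. A single day leaves 2 arrays a group. With the 8 arrays alone, 0 passed in trauma-hemorrhage blood at 3 and 7 days and after LPS at 2 hr, 1 in burn blood at 3 and at 7 days, and 5 in burn spleen at 7 days. With the control level as a covariate, 0 passed in trauma-hemorrhage blood at 3 and 7 days, 2 in trauma-hemorrhage spleen at 7 days and 1 after LPS at 2 hr. Without arrays of high spiked controls, 0 passed in trauma-hemorrhage blood and 1 in burn blood at 3 days, 1 in burn spleen at 2 hr and 2 in trauma-hemorrhage spleen at 7 days, and trauma-hemorrhage blood at 7 days could not be fitted. Quantile normalization gave 0 in trauma-hemorrhage blood at 3 days, 1 in burn spleen at 7 days and 0 for blood against spleen after trauma-hemorrhage. A pseudocount of 1 gave 0 in trauma-hemorrhage blood at 7 days. The cause was not tested.

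With each array left out in turn the count ran from 7 to 8 in trauma-hemorrhage blood at 2 hr, 3 to 5 at 1 day, 0 to 2 at 3 days and 0 to 1 at 7 days. It ran from 7 to 8 in trauma-hemorrhage spleen at 2 hr, 6 to 7 at 1 day and 0 to 1 at 7 days, and from 6 to 8 in burn spleen at 1 day and 0 to 2 at 7 days. In burn blood it ran from 0 to 1 at 2 hr and at 3 days, and after LPS at 2 hr from 1 to 7. For differences between times it ran from 4 to 6 (burn blood), 7 to 8 (trauma-hemorrhage blood) and 0 to 4 (LPS). For blood against spleen it ran from 1 to 3 after burn and 1 to 3 after trauma-hemorrhage, and for LPS from 5 to 6 against burn and 3 to 5 against trauma-hemorrhage. The other counts were the same with every array left out. The labels give the same replicate numbers to the groups. On the injury arrays, numbers 1 and 2 share a hybridization day, as do 3 and 4, and nothing else is known to be shared. With the replicate number as a block the counts of genes passing were the reported ones in every comparison, such as 8 in trauma-hemorrhage spleen and 7 in trauma-hemorrhage blood at 2 hr. Signals near the bottom of the range, such as those of Iigp1 in sham blood, limit the size of fold that can be read.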
